A study of Homo sapiens with 6 samples.

Results

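The cytosolic sulfotransferases examined here were SULT1C4, its neighbouring paralog SULT1C2, and SULT1A1, SULT1A2, SULT1B1, SULT1E1 and SULT2B1. Their values were taken from the probe sets that the platform annotation pairs with exactly 1 of these 7 gene symbols, and the gene number was used to match the symbol because SULT1C4 carries SULT1C2 among its older names. Such a probe set was found for 6 of the 7 genes, 1 for each, out of 32321 probe sets and 18404 named genes on the array. SULT1A2 had none and was not analysed here. The family was chosen by the array values of SULT1C4, 1 of the probe sets that passed the comparison of the groups fitted here. The difference of SULT1C4 between the groups is thus given below as a description, from whose test nothing is read.

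DLD-1 is a line derived from a human colorectal adenocarcinoma and lacks DKK-1 of its own according to the study. DLD-1/DKK1 cells had been transduced with a lentivirus from which doxycycline induces a tagged DKK1, the secreted Wnt inhibitor Dickkopf-1. DLD-1/Mock cells had received the vector without that gene. Both groups were given doxycycline for a day, the vectors described encode eGFP, and the methods mention no cloning of the transduced cells. RNA of 3 dishes per group was hybridised to 6 whole-transcript arrays, and all values are log2 expression after background correction and equalisation of the arrays. The sources used here do not say whether dishes came from separate transductions. Errors and p-values thus measure the spread between dishes, which may be technical.

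Cytosolic sulfotransferases move a sulfonate group from the cosubstrate PAPS to hydroxyl or amino groups of hormones, bile acids, dietary phenols and drugs. The product is usually more soluble and easier to export, although sulfation turns some procarcinogens into reactive esters. Intestinal epithelium is a main site of this conjugation, together with the liver. The SULT1 branch prefers phenols, amines and oestrogens, and the SULT2 branch prefers hydroxysteroids.

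As a check of the labels, DKK1 had log2 values of 5.15, 5.74 and 5.01 in DLD-1/Mock against 12.30, 12.38 and 12.36 in DLD-1/DKK1, a difference of 7.05 (SE 0.18; limma adjusted p = 0.00015). Array medians ranged from 6.76 to 6.86. The array that deviated most was Mock 2, whose correlations with the others across probe sets were 0.9953 to 0.9969, against at least 0.9973 for every other pair. Of the 12 colorectal epithelial markers, EPCAM, KRT8 and KRT18 were among the brightest probe sets (percentiles 98.7 to 98.8), while KRT20 was dim (percentile 32.8). The mean over these markers was 10.16 to 10.21 in DLD-1/Mock and 10.19 to 10.24 in DLD-1/DKK1. Of 12 markers of other cell types, 10 had lower values in DLD-1/DKK1 (9 after median centring), and their mean was 6.04 to 6.15 in DLD-1/Mock and 5.94 to 5.98 in DLD-1/DKK1. PTPRC, carried by all leukocytes, was dim in both groups (percentile 9.8). The part of these markers in the results below was not tested. Both groups are cultures of the same line, so these markers do not count cells of other types here. In bulk RNA, fewer DLD-1 cells that express a gene and less RNA per cell cannot be told apart.

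SULT1C4, an enzyme of phenols and xenobiotics best known from fetal tissues, had log2 values of 7.116, 6.998 and 7.190 in DLD-1/Mock and of 7.649, 7.636 and 7.675 in DLD-1/DKK1. The groups were fully separated, with DLD-1/DKK1 higher, and Mock 2 was the lowest of the 6 arrays. The group means were 7.10 ± 0.10 and 7.65 ± 0.02 (SD, n = 3 each), a log2 difference of 0.55 (SE 0.06), which is 1.47-fold. Only 99 of the 32321 probe sets had a larger absolute difference, and 43 had a larger positive one. The 1000 probe sets nearest to it in brightness had a median difference of -0.05. Its mean lay at percentile 56.9 of brightness, a rank among probe sets that does not show expression above its own background. Without Mock 2 the difference was 0.50 (SE 0.04).

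**Figure D1:**
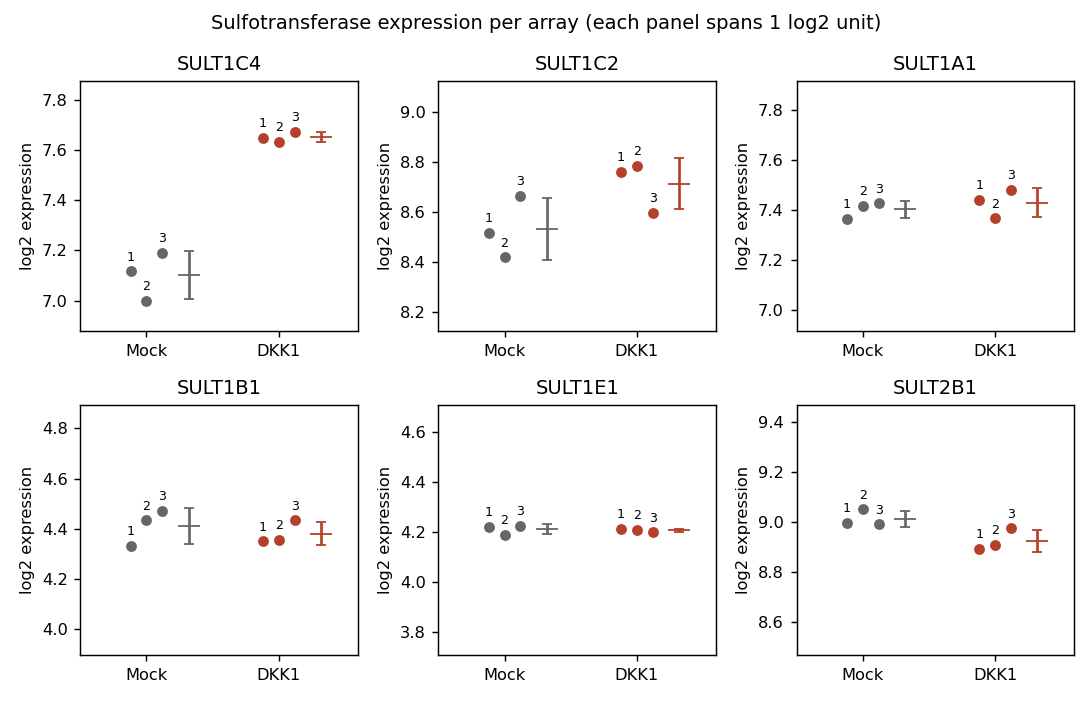
Log2 expression (vertical axes) of the 6 measured sulfotransferases by group, where numbered points are arrays and the bar and whiskers are mean ± SD of 3. SULT1C4 shows the groups apart at 7.10 and 7.65, SULT1C2 overlaps between 8.42 and 8.78, SULT1A1, SULT1B1 and SULT1E1 overlap, and SULT2B1 is lower by 0.088 with no overlap.

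SULT1C2, which also sulfates phenols, lies next to SULT1C4 among the protein-coding genes of chromosome 2. Its values were 8.52, 8.42 and 8.66 in DLD-1/Mock and 8.76, 8.78 and 8.60 in DLD-1/DKK1. The groups overlapped, because DKK1 3 lay below Mock 3. The log2 difference was 0.18 (SE 0.08), with a 95% interval of -0.01 to 0.37, and 0.12 (SE 0.08) without Mock 2. Its spread between dishes was wider than that of SULT1C4, with a residual SD of 0.113 against 0.070 and a median of 0.074 over all probe sets.

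SULT1C4 was then set against SULT1C2 within each array, which removes any factor that an array applies to both. SULT1C4 minus SULT1C2 was -1.40, -1.42 and -1.47 in DLD-1/Mock and -1.11, -1.15 and -0.92 in DLD-1/DKK1. The groups did not overlap. This within-array difference was higher in DLD-1/DKK1 by 0.37 (SE 0.07), or 1.29-fold, and ran from 0.30 to 0.42 when single arrays were left out. It is given as a description, since the choice of SULT1C4 fixes much of it. Against SULT1A1 the same quantity differed by 0.52 (SE 0.06), against SULT1B1 by 0.58 (SE 0.07), against SULT1E1 by 0.56 (SE 0.05) and against SULT2B1 by 0.64 (SE 0.08). These values largely repeat the 0.55 of SULT1C4 itself. SULT1B1 and SULT1E1 were dim (percentiles 10.9 and 7.3), so what the subtraction removes there is uncertain.

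**Figure D2:**
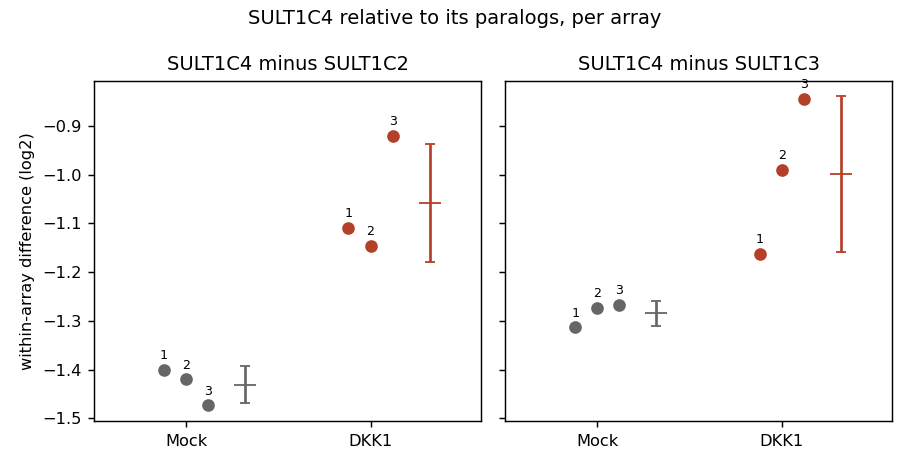
Within-array difference (vertical axis, log2) of SULT1C4 minus SULT1C2 and of SULT1C4 minus SULT1C3, where numbered points are arrays and the bar and whiskers are mean ± SD of 3. In both panels the DLD-1/DKK1 arrays lie above the DLD-1/Mock arrays, by 0.37 for SULT1C2 and by 0.29 for SULT1C3 on average.

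SULT1C3, the remaining gene of this cluster, is not among the 7 and is shown because it lies on the far side of SULT1C2. Its values were 8.43, 8.27 and 8.46 in DLD-1/Mock and 8.81, 8.63 and 8.52 in DLD-1/DKK1. The groups did not overlap, although DKK1 3 lay only just above Mock 3. The log2 difference of 0.27 (SE 0.09) did not pass over all probe sets (limma adjusted p = 0.488), and it was 0.21 (SE 0.09) without Mock 2. SULT1C4 minus SULT1C3 was -1.31, -1.27 and -1.27 in DLD-1/Mock and -1.16, -0.99 and -0.84 in DLD-1/DKK1. It was higher in every DLD-1/DKK1 array, by 0.29 on average (SE 0.09).

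The stretch just upstream of each of the 3 SULT1C genes is shown because these neighbours share a cluster but had differences of 0.55, 0.18 and 0.27. Each run covers the 250 bases before the annotated start in RefSeq (GRCh38.p14), on the plus strand, at chr2:108377704-108377953 for SULT1C4, chr2:108288645-108288894 for SULT1C2 and chr2:108239718-108239967 for SULT1C3. Capitals mark a cyclic AMP response element (TGACGTCA) or a TATA box (TATAAA or its reverse complement).
SULT1C4: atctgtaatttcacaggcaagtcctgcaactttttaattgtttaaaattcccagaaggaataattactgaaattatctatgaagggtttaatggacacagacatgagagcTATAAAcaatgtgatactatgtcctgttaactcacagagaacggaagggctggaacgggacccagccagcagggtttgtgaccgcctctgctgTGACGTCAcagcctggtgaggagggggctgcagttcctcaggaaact
SULT1C2: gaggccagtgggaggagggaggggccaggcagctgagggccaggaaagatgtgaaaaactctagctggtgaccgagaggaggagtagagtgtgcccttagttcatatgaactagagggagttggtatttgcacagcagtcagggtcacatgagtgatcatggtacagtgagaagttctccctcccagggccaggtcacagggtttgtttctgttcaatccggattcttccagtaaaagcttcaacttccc
SULT1C3: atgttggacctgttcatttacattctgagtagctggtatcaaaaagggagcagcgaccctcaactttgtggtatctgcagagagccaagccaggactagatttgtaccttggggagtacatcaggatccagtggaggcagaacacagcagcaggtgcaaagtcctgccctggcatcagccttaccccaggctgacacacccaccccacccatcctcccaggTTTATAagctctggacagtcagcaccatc
In SULT1C4 the palindromic response element lies 40 to 47 bases before the start, and the TATA letters lie 135 to 140 bases before it. That response element occurs in 1.65% of 35116 promoters of the same length, and in none of the other 5 sulfotransferase promoters searched (SULT1B1, SULT1C2, SULT1C3, SULT1E1 and SULT2B1). TATA letters, found in 10.7% of promoters, lie 24 to 29 bases before the start of SULT1C3 on the opposite strand, and at the same distance in SULT1E1 on the same strand and in SULT1B1 on the opposite strand. The run of SULT1C2 holds neither motif, and has a nuclear receptor half-site (AGGTCA, in 12.1% of promoters) 54 to 59 bases before the start that overlaps the core of an antioxidant response element (TGACNNNGC, in 10.9%). Both strands were searched for 10 motifs. The others were AP-1 (TGANTCA, in 6.57% of promoters), a TCF site (ATCAAAG, in 2.26%), the CCAAT box (in 32.0%), the GC box (GGGCGG, in 42.6%), the xenobiotic response element core (GCGTG, in 32.2%) and an HNF1 half-site (GTTAAT, in 6.23%), and none of these lies in the 3 runs. These matches describe letters only.

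SULT1A1, the main phenol sulfotransferase of the adult body, had values of 7.36, 7.42 and 7.43 in DLD-1/Mock and of 7.44, 7.37 and 7.48 in DLD-1/DKK1. The groups overlapped. The log2 difference was 0.03 (SE 0.05), with a 95% interval of -0.08 to 0.14. SULT1A1 has near-identical copies in SULT1A2, SULT1A3 and SULT1A4, and without the probe sequences it is uncertain how much of its signal came from them.

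SULT1B1, which sulfates thyroid hormones and phenols in the gut, was dim on these arrays. Its values were 4.33, 4.43 and 4.47 in DLD-1/Mock and 4.35, 4.36 and 4.43 in DLD-1/DKK1 (percentile 10.9 of brightness). SULT1E1, the oestrogen sulfotransferase, was also dim, with 4.217, 4.187 and 4.223 in DLD-1/Mock and 4.211, 4.206 and 4.196 in DLD-1/DKK1 (percentile 7.3). Both genes overlapped between the groups. Their probe sets lie near the bottom of the scale, so expression above background was not shown and a change could have been missed. Their log2 differences were -0.03 (SE 0.05; 95% interval -0.16 to 0.09) and -0.0049 (SE 0.04; 95% interval -0.09 to 0.08), and each turned positive after median centring, to 0.021 and 0.048.

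SULT2B1, which sulfates cholesterol and pregnenolone depending on the isoform, lay at percentile 73.7 of brightness. Its values were 8.998, 9.050 and 8.990 in DLD-1/Mock and 8.892, 8.908 and 8.974 in DLD-1/DKK1. The groups were separated, with DLD-1/DKK1 lower and DKK1 3 close to Mock 3. The log2 difference was -0.09 (SE 0.04; 95% interval -0.19 to 0.02), and it was -0.07 without Mock 2 and -0.036 after median centring. On the linear scale this is 0.941-fold, opposite in sign to the 3 SULT1C genes.

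**Figure D3:**
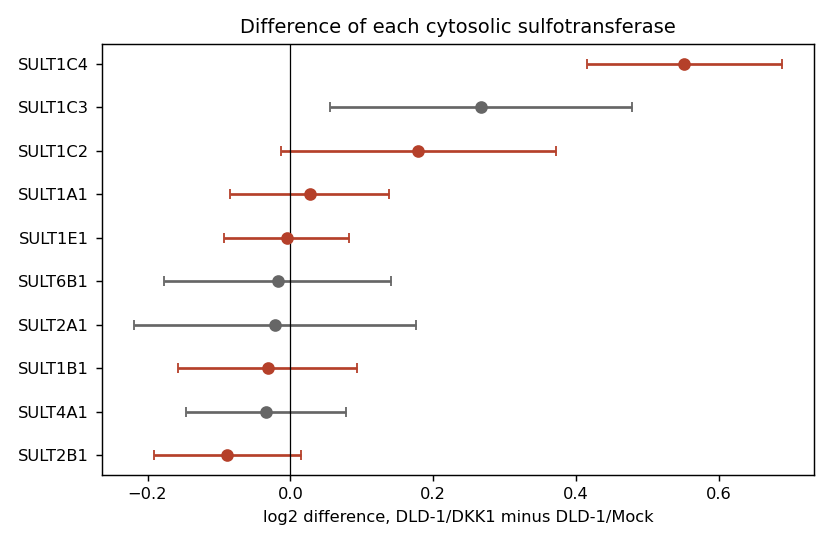
Log2 difference of DLD-1/DKK1 minus DLD-1/Mock (horizontal axis) for every cytosolic sulfotransferase measured, drawn as limma estimates with 95% intervals from 3 arrays a group. Listed genes are in red and others in grey. SULT1C4 lies highest at 0.55, followed by SULT1C3 at 0.27 and SULT1C2 at 0.18, and SULT2B1 lies lowest at -0.09. The small negative values of SULT1E1, SULT6B1, SULT2A1, SULT1B1 and SULT4A1 turn positive after median centring.

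Counted over the 6 measured genes, 3 had a positive and 3 a negative difference, with a median of 0.011 against -0.006 over all probe sets. After median centring, which adds 0.05 to every difference, 5 were positive. In limma over all probe sets, 1 of the 6 passed an adjusted p of 0.05, SULT1C4, as did 28 probe sets in all (0.0866%). That call is how the family came to be chosen, so nothing is read from it. The DLD-1/DKK1 arrays lay wholly above the DLD-1/Mock arrays for SULT1C4, as for 7.91% of all probe sets, and wholly below for SULT2B1, as for 8.55%.

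With any of the 6 arrays left out, SULT1C4 no longer passed, and 2 to 6 probe sets passed in all (6 without Mock 2).

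Of the remaining genes of the family, SULT2A1, the dehydroepiandrosterone sulfotransferase of liver and adrenal, had a difference of -0.02 (SE 0.08), SULT4A1, a neuronal member, -0.03 (SE 0.05), and SULT6B1 -0.02 (SE 0.07). SULT1A3 and SULT1A4 were not analysed here. None of the 4 other members measured passed, SULT1C3 included.

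The genes around SULT1C4 were examined next. In chromosome order the nearest protein-coding genes are RGPD4, SLC5A7, SULT1C3, SULT1C2, then SULT1C4, then GCC2, LIMS1, RANBP2 and CCDC138. RGPD4 was not analysed here. GCC2, a golgin that tethers vesicles at the trans-Golgi, had values of 11.65, 11.53 and 11.60 in DLD-1/Mock and of 11.83, 11.81 and 11.79 in DLD-1/DKK1. The groups did not overlap. GCC2 differed by 0.22 (SE 0.05; limma adjusted p = 0.299), or by 0.19 without Mock 2.

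LIMS1, an adaptor of integrin-linked kinase, had a log2 difference of 0.13 (SE 0.04; limma adjusted p = 0.512) with no overlap between the groups. RANBP2, a nucleoporin, had 0.12 (SE 0.05; limma adjusted p = 0.560), and its groups did not overlap either. CCDC138 had 0.15 (SE 0.06) and overlapped. The choline transporter SLC5A7, which was dim (percentile 18.5), had 0.007 (SE 0.04), and -0.002 without Mock 2. GCC2 and RANBP2 share sequence with the RGPD genes, so the source of their signal is uncertain.

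Of these 7 measured neighbours, 7 had a difference above 0, against 46.9% of all probe sets, or 69.5% of them after median centring. In 4 the DLD-1/DKK1 arrays lay wholly above the DLD-1/Mock arrays, against 7.91% of all probe sets. Over the alternative settings the count above 0 was 6 or 7. None passed in limma over all probe sets, and 3 had an unadjusted p under 0.05, as had 9.23% of all probe sets. The window was then widened to 10 genes on each side, a width chosen after these values were seen. Of the 7 further genes measured there 2 were above 0, UXS1 and SEPTIN10, with a median of -0.04, and after median centring 5 were above 0 with a median of 0.01.

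Over the whole of this window around SULT1C4, 9 of 14 measured genes were above 0 with a median of 0.10. After median centring it was 12 with a median of 0.15. The same window was taken around other members. Around SULT1E1, where SULT1B1 and the UGT2B genes lie, 8 of 15 measured genes were above 0 with a median of 0.001, and 11 after median centring with a median of 0.05. Around SULT1A1 it was 3 of 11 with a median of -0.07, and 4 with a median of -0.02 after centring. Around SULT2B1 it was 2 of 19 with a median of -0.08, and 8 with a median of -0.03 after centring. Over all probe sets the shares above 0 were 46.9% and 69.5%. The DLD-1/DKK1 arrays lay wholly above the DLD-1/Mock arrays for 4 of the 14 genes around SULT1C4 and 4 of the 15 around SULT1E1. This held for 0 genes around SULT1A1 and 0 around SULT2B1. They lay wholly below for 1, 1, 2 and 6 genes around SULT1C4, SULT1E1, SULT1A1 and SULT2B1. Over all probe sets these shares were 7.91% above and 8.55% below. These counts describe regions of 1 set of arrays, and no test between the regions was made.

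**Figure D4:**
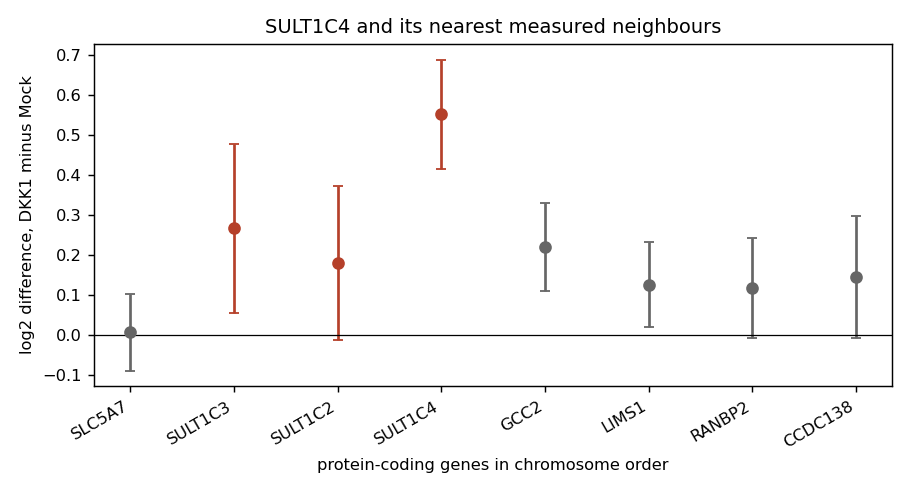
Log2 difference of DLD-1/DKK1 minus DLD-1/Mock (vertical axis) for SULT1C4 and its nearest measured protein-coding neighbours in chromosome order (horizontal axis, evenly spaced and not to scale), drawn as limma estimates with 95% intervals from 3 arrays a group. SULT genes are in red. SULT1C4 stands highest at 0.55, and GCC2 beside it lies at 0.22.

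Across the wider sulfation and conjugation machinery, 96 of the 118 genes on 6 lists were measured. None passed in limma over all probe sets, and 14 had an unadjusted p under 0.05, 13 with a positive and 1 with a negative difference. Over all probe sets 9.23% had such a p, 4.02% with a positive and 5.21% with a negative difference. The median over the 96 genes was -0.01.

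PAPS, the donor that every sulfotransferase needs, is made by PAPSS1 and PAPSS2. Of 12 measured genes for its supply and disposal, 0 passed in either direction, 6 were above 0 and the median was -0.001. BPNT1, the cytosolic phosphatase that removes the product PAP, had values of 8.98, 9.02 and 8.98 in DLD-1/Mock and of 9.14, 9.16 and 9.19 in DLD-1/DKK1. Its groups were apart by 0.17 (SE 0.04; limma adjusted p = 0.343). SLC35B3, which carries PAPS into the Golgi, had 0.12 (SE 0.04; limma adjusted p = 0.487). PAPSS1 and PAPSS2, named after their values were seen, had 0.13 (SE 0.04) and 0.07 (SE 0.04), and in both the DLD-1/DKK1 arrays lay above the DLD-1/Mock arrays.

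Sulfatases reverse sulfation. Of 18 measured genes for sulfatases and their activators, SUMF1 and SUMF2 included, 0 passed, 11 were above 0 and the median was 0.009. ARSL, an arylsulfatase of the Golgi, had 0.19 (SE 0.05; limma adjusted p = 0.388) and ARSJ 0.22 (SE 0.06; limma adjusted p = 0.407). The steroid sulfatase STS, which opposes SULT1E1 and SULT2B1, had 0.03 (SE 0.05) with overlapping groups; its name was added after its value was seen. Among 34 measured Golgi sulfotransferases of tyrosines and carbohydrates, 0 passed, 10 were above 0 (19 after median centring) and the median was -0.05. HS2ST1, which sulfates heparan sulfate, had 0.16 (SE 0.04; limma adjusted p = 0.398), and the tyrosylprotein sulfotransferase TPST1 had 0.14 (SE 0.04; limma adjusted p = 0.476).

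Glucuronidation competes with sulfation for many substrates. Of 11 measured UDP-glucuronosyltransferases and cosubstrate genes, 0 passed and 6 were above 0, with a median of 0.07, while all 8 UGT1A genes on the list were not analysed here. UGT8 is on this list but makes galactosylceramide, not glucuronides. It had values of 9.86, 9.88 and 9.91 in DLD-1/Mock and of 10.19, 10.21 and 10.15 in DLD-1/DKK1. The groups were clearly separated. Its difference of 0.30 (SE 0.04; limma adjusted p = 0.0891) was the closest to the threshold on these lists. UGT2B4, an enzyme of bile acids, had 0.30 (SE 0.06; limma adjusted p = 0.315) at a dim level (percentile 25.4). UGT2B10, named after its values were seen, had a larger difference of 0.57 (SE 0.22), but its DLD-1/DKK1 values of 5.12, 5.62 and 4.70 reached down to the highest DLD-1/Mock value of 4.70.

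Nuclear receptors and sensors known to act on SULT genes, such as VDR, PPARA and AHR, were listed as well. Of 17 measured, 0 passed, 9 were above 0 and the median was 0.014, with differences between -0.11 and 0.11. No gene of this list had an unadjusted p under 0.05.

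**Figure D5:**
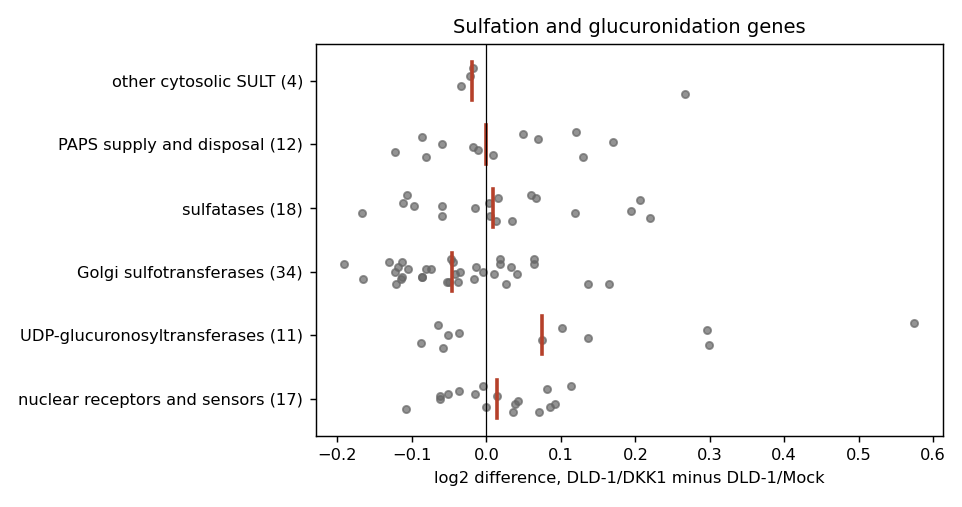
Log2 difference of DLD-1/DKK1 minus DLD-1/Mock (horizontal axis) over the measured genes of 6 lists, where each point is a gene, the red bar is the median of its list and brackets hold the number measured. The medians run from -0.05 for Golgi sulfotransferases to 0.07 for UDP-glucuronosyltransferases, and all medians are above 0 after median centring.

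The genes whose values over the 6 arrays were most like those of SULT1C4 were TGFB2, TEAD2, EIF4G1, ALCAM and CRYBG1, with Pearson correlations of 0.993 to 0.994. All arrays of a group share their treatment, so a correlation over 6 arrays follows the group difference, and 589 probe sets had one above 0.9. TGFB2, a TGF-beta ligand, had a log2 difference of 0.58, the transcription factor TEAD2 0.11, the translation initiation scaffold EIF4G1 0.04, the adhesion molecule ALCAM 0.27 and CRYBG1 0.20. Among the sulfotransferases the correlation with SULT1C4 was 0.77 for SULT1C2, 0.36 for SULT1A1, -0.03 for SULT1E1, -0.26 for SULT1B1 and -0.85 for SULT2B1.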

How the data were processed

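Grouped by sample title, 3 dishes of DLD-1/DKK1 and 3 of DLD-1/Mock were profiled on Affymetrix Human Gene 1.0 ST arrays. Doxycycline was 10 mg/ml per the labels, while the study's methods write micrograms. The deposited log2 values were made by the authors in R by robust multichip averaging. This step corrects background, brings the probe intensities of all arrays to a common distribution and can remove a shift shared by most transcripts. The medians of the deposited values still differed between the groups by 0.05. Versions and genome build are not given in the sources used here. Raw scans were not used. Precision is limited by the 6 arrays.

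Of 32321 probe sets, 19158 had 1 gene symbol, 1388 several and 11775 none, and for 19128 probe sets the symbol was looked up by gene number. Each probe set was fitted with limma 3.58.1 in R 4.3.3 (lmFit and eBayes, two-sided, 4 residual and 2.56 prior degrees of freedom), with Benjamini-Hochberg adjustment over all probe sets and a threshold of 0.05. The SE is the moderated one, and that of within-array differences is unmoderated. In lists the probe set with the highest mean stood for a gene. Named were all members, DKK1, 4 coding neighbours per side, list genes that passed, up to 2 genes per list with an unadjusted p under 0.05, and the 5 genes most correlated with SULT1C4. The members and lists were chosen with earlier results of these data known. The fit was checked on simulated data. Promoters came from RefSeq (GRCh38.p14). No entry was found for SULT1A1 and SULT1A2. Alternatives were quantile normalisation, median centring, cyclic loess, filters on brightness or annotation, other priors, array weights, a replicate block and leaving out each array. Figures used matplotlib 3.10.9.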

Additional observations from a re-analysis of the deposited data

How the results depend on the processing

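SULT1C4 had a difference of 0.50 to 0.60 over the 15 alternatives and passed under 5 of the 9 that kept all arrays. Its groups do not overlap, so leaving out an array cannot turn its sign. As the gene was chosen from this contrast, these values and calls are a description. Filters, priors, the absence of moderation and the replicate block, which is balanced here, cannot alter a difference. Among the sulfotransferases 1 passed with all probe sets and 0 passed after median centring, after cyclic loess, without moderation, with the replicate block and with any array left out (0 to 0). SULT1C4 minus SULT1C2 ran from 0.30 to 0.42. Only quantile normalisation, cyclic loess and leaving out an array could alter it, as array weights were not applied to it. Over all probe sets 28 passed, against 17 after median centring, 66 above the median brightness, 98 among annotated probe sets, 53 with a trended and robust prior, 59 with array weights, 1 without moderation, 1 with the replicate block, and 2 to 6 with an array left out (6 without Mock 2). Of the genes on the 6 sulfation and conjugation lists 0 passed with all probe sets. UGT8, which makes galactosylceramide, was the 1 that passed above the median brightness, among annotated probe sets and with a trended and robust prior. The causes were not tested. SULT1A1 moved to 0.080 and SULT1E1 to 0.048 after median centring. The replicate numbers showed no sign of pairing the dishes, which does not exclude a pairing. Correlations of deviations were 0.105, 0.008 and -0.137 between same-numbered arrays. Only 1 of 3 DLD-1/Mock arrays correlated best with its own number. With the block the SULT1C4 difference was 0.55, the same as without it by design. Low brightness limits what can be said of SULT1B1 and SULT1E1.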

Other observations

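On the list of markers of other cell types the most negative difference was that of SERPINA1. It is a protease inhibitor of liver but also of gut, so it does not mark other cells in a colorectal line. Its values were 7.81, 7.76 and 7.80 in DLD-1/Mock and 7.42, 7.34 and 7.26 in DLD-1/DKK1. Its log2 difference of -0.44 (SE 0.05; limma adjusted p = 0.0696) did not pass. The lysosomal CD68 had -0.26 (SE 0.06; limma adjusted p = 0.345). Among the 12 epithelial markers the cadherin CDH17 had 0.18 (SE 0.04; limma adjusted p = 0.325). For 3 of these 12 the DLD-1/DKK1 arrays lay wholly above the DLD-1/Mock arrays, and for 3 wholly below. For the 12 markers of other cell types it was 0 above and 4 below. Over all probe sets the shares were 7.91% and 8.55%. The 3 epithelial markers below were KRT8 (-0.11), KRT18 (-0.08) and CDX1 (-0.09). Of each marker list of 12 genes, 0 passed in limma, and an unadjusted p under 0.05 was found for 3 markers of other cell types and 1 epithelial marker, against 9.23% of all probe sets.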
